A study of Mus musculus with 6 samples.

Results

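Purinergic genes were compared between RAW264.7 cells labelled as treated with high-fructose corn syrup (HFCS) and cells labelled as controls. RAW264.7 is a mouse macrophage-like line, and HFCS is a sweetener of free fructose and glucose. The set was chosen by gene symbol: the ATP-gated channels P2rx4 and P2rx7, the nucleotide receptors P2ry2, P2ry6 and P2ry14, the adenosine receptors Adora2a and Adora2b, the ectonucleotidases Entpd1 (CD39) and Nt5e (CD73), and the ATP-releasing channel Panx1. It names 10 genes, of which 9 were analysed among 24379 genes in the count table, and P2ry14 is not analysed here. RNA sequencing covered 6 libraries at 18 h, 3 labelled HFCS (140 mM in the titles and 170 mM in the source names, so the dose is uncertain) and 3 labelled WT, here the control. The labels do not say what the controls received. They do not say either that replicates were separate cultures, so the spread behind each p-value may be technical.

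Cells release ATP and other nucleotides through channels such as pannexin 1. Extracellular ATP opens P2X channels and nucleotides activate G-protein-coupled P2Y receptors. CD39 removes phosphates from ATP and ADP to leave AMP, and CD73 turns AMP into adenosine, which acts on its own receptors. In macrophages P2X7 is known for potassium efflux and activation of the NLRP3 inflammasome, and the adenosine receptors of the A2 type for raising cyclic AMP and restraining inflammatory output.

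The members P2rx4, P2rx7 and Entpd1, the last with enough counts to test in the HFCS-labelled group alone, were higher in the HFCS-labelled libraries. This held in the main test and in all 14 alternatives of scaling, test, filter and libraries. Most alternatives kept a filter that a gene can pass through either group, so for Entpd1 they add no independent support. The 250 bases before the annotated transcription starts of P2rx4, P2rx7 and Entpd1 are shown because these members were called in every setting. They are from the RefSeq promoter table on GRCm38.p6, plus strand, and capitals mark letters that match a searched motif. P2rx7 and Entpd1 have 2 RefSeq starts each, and the start nearest the listed gene start is shown. P2ry6, which passed the main test narrowly, and Adora2a have no entry there.
P2rx7, chr5:122643677-122643926: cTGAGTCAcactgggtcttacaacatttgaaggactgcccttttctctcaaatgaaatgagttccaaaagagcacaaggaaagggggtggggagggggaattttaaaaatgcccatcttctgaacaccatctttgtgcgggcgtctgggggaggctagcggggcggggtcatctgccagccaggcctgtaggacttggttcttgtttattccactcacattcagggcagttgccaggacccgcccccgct
P2rx4, chr5:122707294-122707543: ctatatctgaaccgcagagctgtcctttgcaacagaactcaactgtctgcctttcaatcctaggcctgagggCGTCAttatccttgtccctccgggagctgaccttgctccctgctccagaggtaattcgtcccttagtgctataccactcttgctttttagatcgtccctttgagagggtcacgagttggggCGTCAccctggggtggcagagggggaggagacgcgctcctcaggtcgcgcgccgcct
Entpd1, chr19:40612116-40612365: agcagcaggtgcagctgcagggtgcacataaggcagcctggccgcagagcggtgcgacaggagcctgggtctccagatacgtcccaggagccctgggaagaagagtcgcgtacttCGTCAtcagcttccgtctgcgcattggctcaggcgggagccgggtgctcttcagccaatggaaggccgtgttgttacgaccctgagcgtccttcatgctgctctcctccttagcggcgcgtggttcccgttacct

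On both strands, 5 motifs were searched: TGANTCA (AP-1), TGACG (core of the cyclic AMP element), ACGTG (core of the hypoxia element), an NF-kB motif of 10 letters (GGG, any 2 bases, TTTCC) and TGGAAA (core of the NFAT element). The P2rx7 window held 1 match, TGAGTCA, starting 249 bases before the start. The P2rx4 window held CGTCA, the reverse complement of TGACG, at 178 and at 57 bases before the start, and the Entpd1 window held it at 135 bases. These matches did not overlap one another. Among 32851 windows of the same length, some of them at several starts of 1 gene, 6.75% held TGANTCA, 17.8% TGACG, 16.6% ACGTG, 1.41% the NF-kB motif and 18.6% TGGAAA. Of the other members with an entry, the Panx1 window held CGTCA at 47 bases, and the windows of P2ry2, Adora2b and Nt5e held none of the 5. Letters in a window are a description and do not show that a factor binds there.

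The libraries held 13108485 to 15340255 counts, and 3 counts, the floor for a gene not counted, equal 0.190 to 0.223 CPM (counts scaled to library size with the TMM factor). On the first principal component (70.0% of variance) the groups parted, and the second (11.8%) set control replicate 1 (29.3) apart from its group (-14.2 and -13.4) and HFCS replicate 3 (-18.9) from its own (8.89 and 8.23). Akr1b3, an aldose reductase gene known to be induced by hypertonic stress, had 2925 to 3256 counts in HFCS-labelled and 102859 to 107146 in control-labelled libraries, so each direction here rests on the labels. Of 10 macrophage markers, 9 were tested, 6 higher and 2 lower (88.9% called, beside 44.9% of all tested genes). The summed level of the 10 was 1980.3 to 2055 CPM in HFCS-labelled against 1583 to 1589 CPM in control-labelled libraries. Lyz2 (mean 915 CPM in HFCS-labelled, 716 CPM in control-labelled libraries) and Cd14 (409 and 110 CPM) were among the 6 higher. The 2 lower were Cd68 (293 and 391 CPM) and Csf1r (116 and 184 CPM), so the sum does not stand for every marker. Mertk, a macrophage uptake receptor, was at 0 in every HFCS-labelled library and had 0 to 4 counts in control-labelled ones. Markers of other cell types were scarce. The 2 epithelial and 3 T cell markers analysed, each list of 5, summed per list to at most 0.261 CPM in HFCS-labelled libraries and 0.733 CPM in control-labelled ones. B cell markers (4 of 5 analysed, mostly Cd79b) summed to 3.98 to 4.87 CPM in HFCS-labelled and 4.71 to 4.79 CPM in control-labelled libraries. Fibroblast markers (3 of 5) summed to 0.593 to 1.01 CPM in HFCS-labelled and 0.208 to 0.879 CPM in control-labelled libraries. Neutrophil markers (4 of 5) summed to 1.01 to 1.34 CPM in HFCS-labelled and 0.806 to 1.04 CPM in control-labelled libraries. The part of macrophage state in the differences below was not tested, and in bulk RNA fewer cells of a type and less RNA per cell cannot be told apart.

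Of the 9 members analysed, 7 had enough counts to test. In edgeR's quasi-likelihood test (p-values adjusted by Benjamini-Hochberg over 14360 genes), 4 members were higher in the HFCS-labelled libraries, 3 did not pass and 0 were lower. In the same comparison 44.9% of all tested genes passed, 22.4% higher and 22.5% lower, so a call is common in these libraries. With at least 1.5-fold required as well, 3 members were higher (10.5% of all tested genes), and with at least 2-fold 1 was, Entpd1 (4.24% of all tested genes). The groups did not overlap for 4 members, all higher, and for 54.5% of all tested genes, 27.4% higher and 27.2% lower. Scaling by library size alone gave 60.2% of all calls as higher, in place of 50.0%, and put the median of all genes at 0.08 on the log2 scale. All 7 log2 fold changes were above 0, with a median of 0.38 against -0.005 over all tested genes. Entpd1 passed the filter on low counts through the HFCS-labelled group alone and the other 6 through either group, so these counts describe the tested members and support no direction. No member was lower at an unadjusted p under 0.05 or by DESeq2 or limma-voom. This adds no support, since all 7 log2 fold changes were above 0 in each of these fits.

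**Figure D1:**
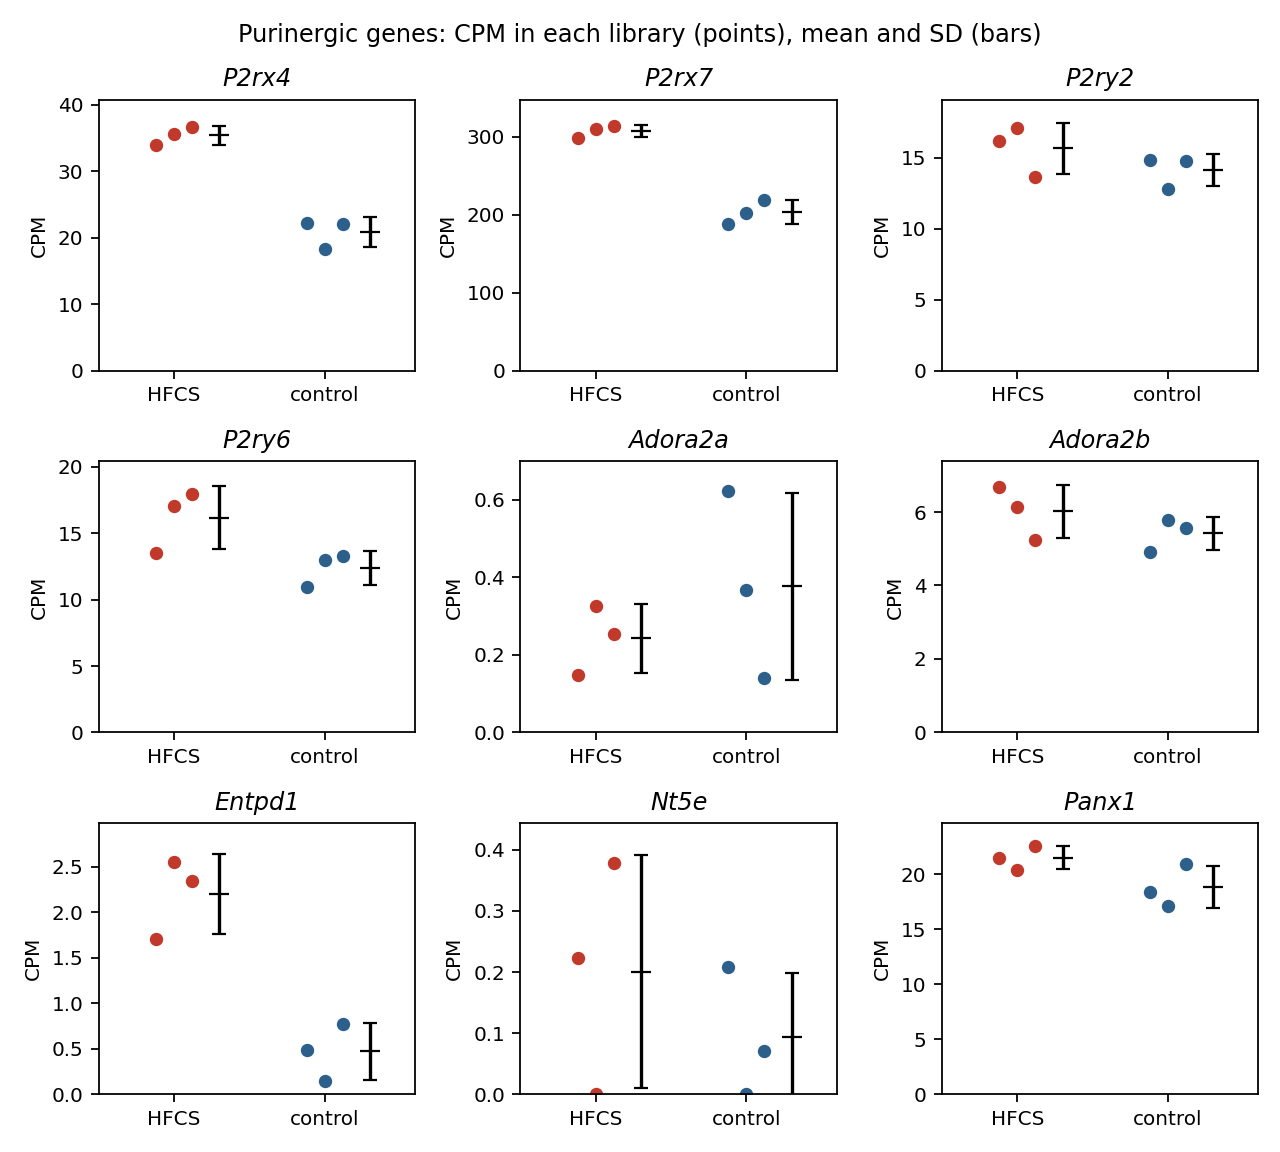
CPM of each analysed member, with 3 HFCS-labelled libraries (red, left) and 3 control-labelled libraries (blue, right) as points and the mean with its SD as a bar. The groups do not overlap for P2rx4, P2rx7, P2ry6 and Entpd1. Every vertical axis starts at 0 and has its own scale.

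P2rx7 (ENSMUSG00000029468, mm10 chromosome 5, 122643911 to 122691432, plus strand) was by far the most abundant member, also per length. It had 298, 309 and 314 CPM in HFCS-labelled replicates 1 to 3, against 188, 203 and 218 CPM in control-labelled replicates 1 to 3. All HFCS-labelled libraries lay above all control-labelled ones, and the spread within each group was small beside the gap. The mean was 307 ± 7.98 CPM in HFCS-labelled libraries, against 203 ± 15.4 CPM in control-labelled ones (SD, n = 3 each), which is 1.51-fold, or 0.60 ± 0.07 (SE) as log2 fold change (edgeR adjusted p = 8.4e-05). Over the settings tried its log2 fold change was 0.55 to 0.68 and its adjusted p at most 7.3e-04.

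P2rx4 (ENSMUSG00000029470, chromosome 5, 122707544 to 122729738, plus strand) encodes another ATP-gated channel, which opens at lower ATP than P2X7. Its gene begins 16111 bases beyond the end of P2rx7, on the same strand. It had 33.9, 35.6 and 36.7 CPM in the HFCS-labelled libraries, against 22.2, 18.3 and 22.1 CPM in the control-labelled ones. Here too the groups did not overlap, and control replicate 2 was the lowest library. The level was 1.70-fold higher, or 0.76 ± 0.11 (SE) on the log2 scale, with adjusted p = 2.2e-04 in edgeR.

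The channels' relative counts were compared within each library. There were 8.80, 8.70 and 8.54 P2rx7 counts per P2rx4 count in the HFCS-labelled libraries, against 8.45, 11.1 and 9.90 in the control-labelled ones. The means, 8.68 ± 0.129 in HFCS-labelled libraries and 9.80 ± 1.31 in control-labelled ones (SD, n = 3 each), differed by less than the control spread (two-sided exact permutation p = 0.4, where 0.1 is the smallest p that 3 against 3 can give). No difference of any size could pass 0.05 in this test, so it does not show whether the fold changes of the channels differ.

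The P2Y receptor genes P2ry6 and P2ry2 also lie near each other, on the minus strand of chromosome 7 with 21918 bases between them. P2ry6 passed the test narrowly and P2ry2 did not pass. P2ry6 (ENSMUSG00000048779, 100937630 to 100974649), the receptor for UDP, had 13.5, 17.0 and 18.0 CPM in HFCS-labelled libraries and 10.9, 12.97 and 13.3 CPM in control-labelled ones. The groups parted by a narrow gap, between HFCS replicate 1 and control replicate 3. Its log2 fold change of 0.38 ± 0.14 (SE) lay just inside the threshold (edgeR adjusted p = 0.0495). It did not pass in 9 of 14 other settings, among them DESeq2 (adjusted p = 0.0613), median-of-ratios scaling (0.0515) and the removal of any library other than HFCS replicate 1 (0.0618 to 0.147). The unnamed gene Gm44545 overlaps P2ry6 on the opposite strand, with 0 to 6 counts in HFCS-labelled and 0 to 1 in control-labelled libraries and no shared exon bases in GENCODE M21.

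P2ry2 (ENSMUSG00000032860, 100996568 to 101012866), the receptor for ATP and UTP, had 16.2, 17.1 and 13.7 CPM in HFCS-labelled libraries and 14.8, 12.8 and 14.8 CPM in control-labelled ones. The groups overlapped, with HFCS replicate 3 below 2 of the controls. Its log2 fold change of 0.14 did not pass (edgeR adjusted p = 0.397, 95% interval -0.14 to 0.43).

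Of the adenosine receptors, Adora2b was measurable and Adora2a was near the floor. Adora2b (ENSMUSG00000018500, chromosome 11, 62248984 to 62266453, plus strand), the low-affinity receptor, had 6.68, 6.14 and 5.25 CPM in HFCS-labelled libraries and 4.92, 5.79 and 5.57 CPM in control-labelled ones. The groups overlapped and the log2 fold change of 0.15 did not pass (edgeR adjusted p = 0.516, 95% interval -0.23 to 0.53). Adora2a (ENSMUSG00000020178, chromosome 10, 75316877 to 75334784, plus strand), the high-affinity receptor, was counted 2, 5 and 4 times in HFCS-labelled and 9, 5 and 2 times in control-labelled libraries. That is too low to test, and the ratio of summed counts, scaled for library size, was 0.652 (exact 95% counting interval 0.273 to 1.495). Such intervals take in counting error alone, because reads that carry no molecular identifier need not be independent molecules.

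Of the tested members Entpd1 had the largest fold change, while the other ectonucleotidase gene, Nt5e, was too scarce to test. Entpd1 (ENSMUSG00000048120, chromosome 19, 40612366 to 40741602, plus strand), which codes for CD39, was counted 23, 39 and 37 times in HFCS-labelled libraries, against 7, 2 and 11 times in control-labelled ones. This is 1.71, 2.55 and 2.34 CPM in HFCS-labelled libraries and 0.485, 0.147 and 0.775 CPM in control-labelled ones, so the message was scarce in both groups but the groups did not overlap. The level was 4.61-fold higher, or 2.20 ± 0.45 (SE) on the log2 scale with a 95% interval of 1.21 to 3.20 (edgeR adjusted p = 0.00256). Entpd1 passed the filter on low counts through the HFCS-labelled group alone, where it was higher, so this p-value is not independent of the filter. Control replicate 2, at 2 counts, lay under the floor of 3 counts, and without it the log2 fold change was 1.80. The change passed in all 14 other settings, at log2 fold changes of 1.80 to 2.76. One of these tested every gene with no filter on low counts, with an edgeR adjusted p of 2.7e-04. The pseudogene Gm8783 lies within Entpd1 on the same strand, with 16 to 25 counts in HFCS-labelled and 9 to 16 in control-labelled libraries, and shares no exon bases with it in GENCODE M21.

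Nt5e (ENSMUSG00000032420, chromosome 9, 88327197 to 88372092, plus strand), which codes for CD73, was counted 3, 0 and 6 times in HFCS-labelled and 3, 0 and 1 times in control-labelled libraries. It was at or near the floor in both groups and was not tested, the ratio of its summed counts, scaled for library size, being 2.13 (counting interval 0.595 to 9.48). A difference in Nt5e was not detectable at this depth.

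Panx1 (ENSMUSG00000031934, chromosome 9, 15002128 to 15045478, minus strand), the release channel, had 21.5, 20.4 and 22.6 CPM in HFCS-labelled libraries and 18.4, 17.1 and 20.9 CPM in control-labelled ones. Control replicate 3 reached into the HFCS-labelled range. The log2 fold change of 0.19 ± 0.11 (SE) did not pass (edgeR adjusted p = 0.194, 95% interval -0.06 to 0.44).

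**Figure D2:**
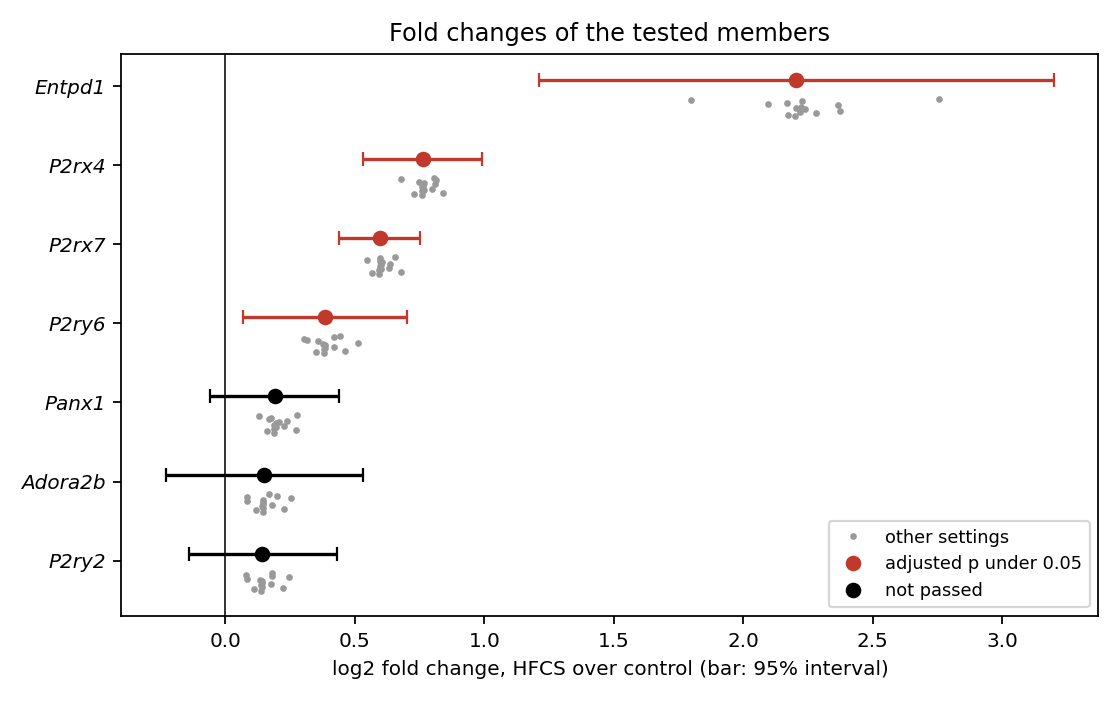
Log2 fold change, HFCS over control, of the 7 tested members with its 95% interval. Grey points below each are the values under the 14 other settings. Entpd1 at 2.20 lies far above P2rx4 at 0.76 and P2rx7 at 0.60, and the intervals of Panx1, Adora2b and P2ry2 include 0.

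Levels of different genes were compared as TPM, counts divided by gene length and scaled to a common total. The length was that of all annotated exons of each gene in GENCODE M21, merged over its transcripts. The transcripts in use may be shorter, so the order between genes depends on this choice. P2rx7 stood at 168 ± 9.31 TPM in HFCS-labelled and 108 ± 11.6 TPM in control-labelled libraries (SD, n = 3 each). Among 24344 genes with a length it ranked 844 in HFCS-labelled and 1456 in control-labelled libraries. It supplied 75.7 to 76.1% of the counts of the 9 members in HFCS-labelled and 72.1 to 75.0% in control-labelled libraries. Next in the HFCS-labelled libraries came P2ry6 (15.0 to 21.1 TPM) and P2rx4 (15.5 to 17.7 TPM), whose ranges overlapped. P2ry2 (11.8 to 13.9), Panx1 (10.8 to 12.7) and Adora2b (9.65 to 11.6 TPM) followed, with ranges that overlapped in turn. Entpd1 lay lower at 0.980 to 1.46 TPM, above Adora2a at 0.155 to 0.340 TPM and Nt5e at 0 to 0.150 TPM.

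The order was not the same in the control-labelled libraries. There P2ry6 (11.5 to 15.0), P2ry2 (10.5 to 12.2), Panx1 (9.17 to 11.3), P2rx4 (8.41 to 10.2) and Adora2b (8.10 to 10.1 TPM) formed a chain in which each range overlapped the next. Entpd1, at 0.0847 to 0.450 TPM, could not be set apart from Adora2a, at 0.149 to 0.619 TPM. At these lengths P2rx4 thus stood above P2ry2 in every HFCS-labelled library and below it in every control-labelled one.

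**Figure D3:**
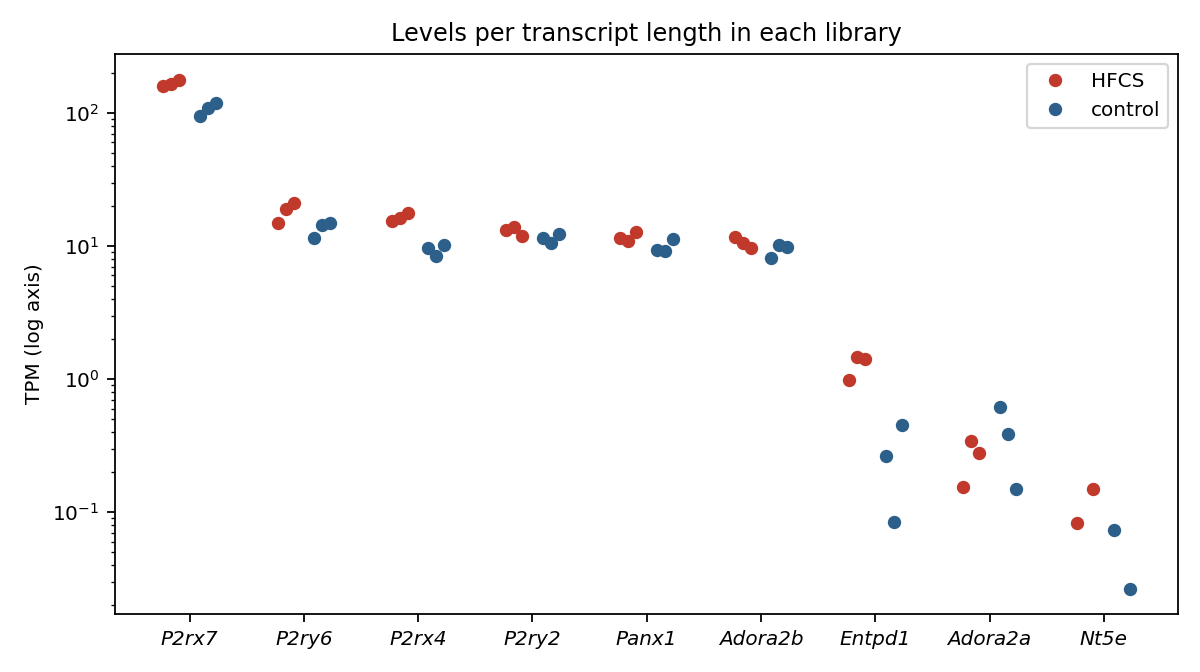
TPM of each member in each library on a log axis, HFCS-labelled (red) left of control-labelled (blue). P2rx7 lies at 95.6 to 178 TPM, and 5 members lie at 8.10 to 21.1 TPM. Libraries with 0 counts of Nt5e, 1 in each group, are not drawn.

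Other genes of the pathway moved in both directions. Of 63 further genes listed by role, 55 were analysed and 37 tested. Of these, 9 were higher, 12 lower and 16 did not pass (56.8% called, beside 44.9% of all tested genes), with a median log2 fold change of 0.01. The count of higher genes was 5 without HFCS replicate 2 and 6 with DESeq2. Library-size scaling gave 12 higher and 9 lower, and no filter on low counts gave 10 higher and 9 lower. Which direction held more genes thus depended on the setting.

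Of the other receptors tested, 50% of 2 P2X genes and 66.7% of 3 P2Y genes were called, beside 44.9% of all tested genes. Those that passed were scarce and differed in direction. P2ry10b, listed among the P2Y genes by its symbol and not by its ligand, was named after its value was seen. It was more abundant, at 19.3 ± 2.18 CPM in HFCS-labelled libraries, against 21.1 ± 4.35 CPM in control-labelled ones (SD, n = 3 each). It did not pass (edgeR adjusted p = 0.531), and these data do not show that it is a nucleotide receptor. P2ry4, a UTP receptor, was lower, with 12 counts in all in HFCS-labelled libraries against 53 in control-labelled ones, or -2.18 ± 0.47 (SE) on the log2 scale (edgeR adjusted p = 0.00354). P2ry12, the ADP receptor known from platelets and microglia, was higher at 1.75 ± 0.301 CPM in HFCS-labelled, against 0.756 ± 0.386 CPM in control-labelled libraries (SD, n = 3 each), or 1.21 on the log2 scale (edgeR adjusted p = 0.0278). It did not pass without HFCS replicate 2 or 3 or control replicate 1 or 2 (0.0754 to 0.0924). P2rx5, an ATP-gated channel, had a log2 fold change of 1.22 and an edgeR adjusted p of 0.0454, and did not pass in 9 of 14 other settings. P2ry4 passed the filter on low counts through the control-labelled group alone, and P2ry12 and P2rx5 through the HFCS-labelled group alone. With no such filter P2ry4 (edgeR adjusted p = 0.00304) and P2ry12 (0.0210) passed and P2rx5 (0.0745) did not. Named after their values were seen, P2ry13, another ADP receptor, had 16 counts in all in HFCS-labelled libraries against 1 in control-labelled ones, at a ratio scaled for library size of 15.2 (counting interval 2.36 to 636). P2rx2 had 25 in HFCS-labelled and 4 in control-labelled libraries, at a scaled ratio of 5.92 (2.05 to 23.4), and neither was high enough to test. P2rx6, with 5 counts in HFCS-labelled and 13 in control-labelled libraries, had a scaled ratio of 0.365 (0.102 to 1.09). P2rx1, with 12 in HFCS-labelled and 14 in control-labelled libraries, had one of 0.812 (0.343 to 1.89). Both intervals include 1, so neither gene shows a direction. P2rx6 and P2rx1 too were untested and named after their values were seen. The other adenosine receptors were too scarce to test. Adora3 had 27 counts in all in HFCS-labelled and 13 in control-labelled libraries, at a scaled ratio of 1.97 (0.981 to 4.16). Adora1 had 1 in HFCS-labelled and 2 in control-labelled libraries.

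Genes that release nucleotides gave 1 higher, 2 lower and 3 that did not pass (50% called, beside 44.9% of all tested genes). Lrrc8c, a subunit of the volume-regulated anion channel, had 45.4 ± 2.32 CPM in HFCS-labelled libraries and 30.8 ± 6.47 CPM in control-labelled ones (edgeR adjusted p = 0.00719). Slc17a9, which loads ATP into vesicles, was lower at 36.6 ± 2.52 CPM in HFCS-labelled, against 60.4 ± 1.52 CPM in control-labelled libraries, or -0.72 on the log2 scale (edgeR adjusted p = 6.0e-05). Gja1, which codes for connexin 43 and was named after its value was seen, was lower as well, at -0.40 on the log2 scale.

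Genes that clear adenosine included Slc28a2, whose log2 fold change, HFCS over control, was the highest among the 37 tested genes of the wider list. Slc28a2, the sodium-coupled purine nucleoside transporter, had 15.8, 15.7 and 14.5 CPM in HFCS-labelled libraries and 3.81, 3.52 and 4.23 CPM in control-labelled ones. The groups lay far apart, 3.97-fold or 1.99 ± 0.14 (SE) on the log2 scale (edgeR adjusted p = 3.2e-06). Adk, the adenosine kinase gene, was lower at 43.5 ± 1.68 CPM in HFCS-labelled, against 73.2 ± 3.49 CPM in control-labelled libraries, or -0.75 on the log2 scale (edgeR adjusted p = 3.0e-05). Ada, the adenosine deaminase gene, was lower as well, at 10.3 ± 0.592 CPM in HFCS-labelled, against 13.96 ± 0.925 CPM in control-labelled libraries, and was named after its value was seen. Its edgeR adjusted p was 0.0143, and 0.0747 without HFCS replicate 2. The other 4 tested genes of this role did not pass. Of the 7 tested, 42.9% were called, beside 44.9% of all tested genes.

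Of the other listed enzymes that act on nucleotides, Bst1 (CD157), which makes cyclic ADP-ribose from NAD, was higher. It had 21.5 ± 1.11 CPM in HFCS-labelled, against 14.7 ± 1.34 CPM in control-labelled libraries (edgeR adjusted p = 0.00295). The remaining 3 tested enzymes, Entpd5, Entpd6 and Entpd7, did not pass, and whether they act at the cell surface was not tested. Of the 4 tested, 25% were called, beside 44.9% of all tested genes. Entpd3, too scarce to test and named after its value was seen, had 1 count in all in HFCS-labelled libraries against 11 in control-labelled ones. Its scaled ratio was 0.0862 (counting interval 0.00200 to 0.593), and the other untested enzymes differed in direction.

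Downstream of the receptors, 4 of 15 genes for G proteins, adenylyl cyclases, phospholipases and phosphodiesterases were higher, 7 lower and 4 did not pass. That is 73.3% called, beside 44.9% of all tested genes (22.4% higher and 22.5% lower). Pde4b, a phosphodiesterase that degrades cyclic AMP, had 21.9 ± 1.76 CPM in HFCS-labelled libraries and 8.59 ± 1.68 CPM in control-labelled ones, which is 1.35 on the log2 scale (edgeR adjusted p = 6.1e-05). Gnaq, the G protein that links several P2Y receptors to phospholipase C, was higher by 0.48 on that scale, and Gna13, another G protein subunit gene, was lower at -0.47. Adcy7, an adenylyl cyclase, was lower at -0.50 and Adcy3, another, was higher at 0.48. Pde4d, a relative of Pde4b, was lower at -0.45. These 5 had edgeR adjusted p-values of 1.2e-04 to 0.0360. Adcy3 did not pass in 5 of 14 other settings and Pde4d did not in 6, while Gnaq, Gna13 and Adcy7 passed in all 14.

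**Figure D4:**
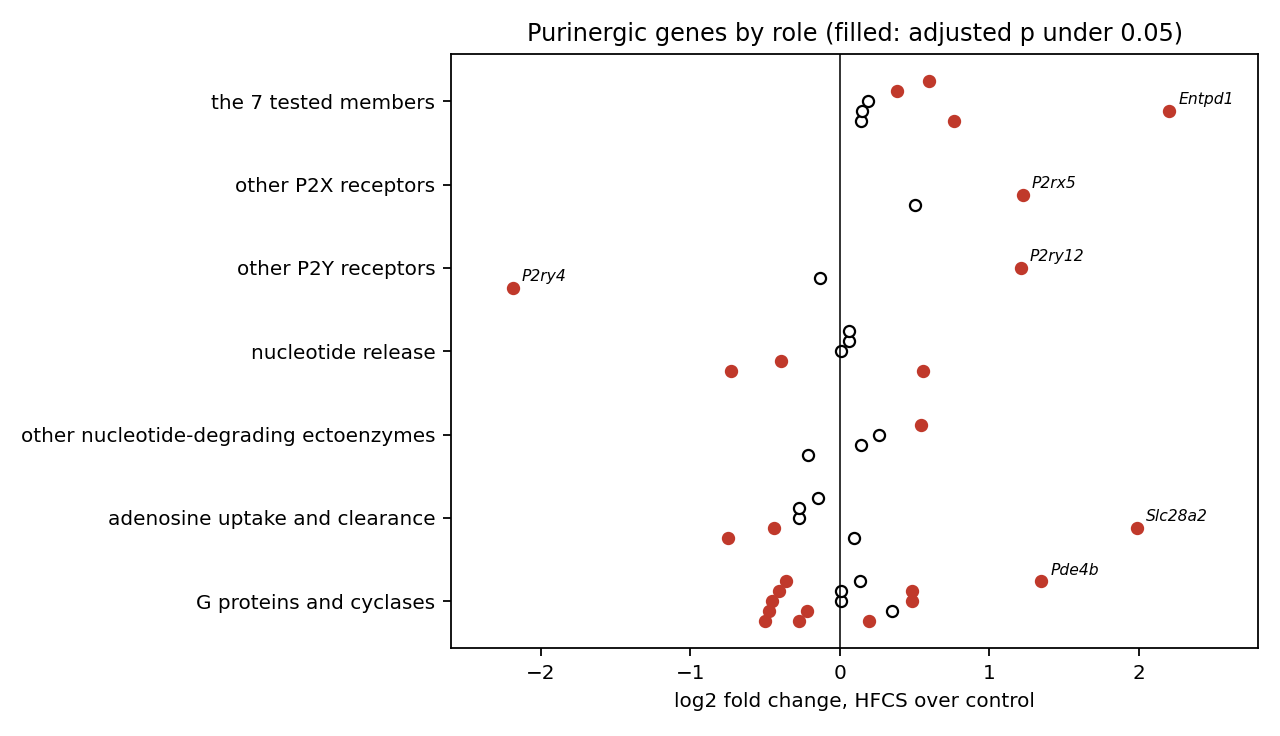
Log2 fold change, HFCS over control, of every tested purinergic gene by role. Filled points passed an adjusted p of 0.05 and open points did not, and vertical offsets only separate points. Slc28a2 at 1.99 and P2ry4 at -2.18 mark the ends among tested genes of the wider list.

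For each tested member, the genes nearest in pattern were found by the root mean square difference of log2 CPM, centred on the mean of the 6 libraries, among 9767 candidate genes. Nearest to P2rx7 were Cttnbp2nl (0.0283) and Snx18 (0.0353), and nearest to P2rx4 were Bcar3 (0.0366) and C1qtnf6 (0.0377). Nearest to P2ry6 were Fastkd2 (0.0508) and Fas (0.0531), to P2ry2 Spn (0.0335) and Homer3 (0.0444), to Adora2b Casp9 (0.0495) and Snrpe (0.0559), and to Panx1 H13 (0.0339) and Creb3 (0.0424). For Entpd1 the nearest candidates were Fadd (0.332) and Gpat3 (0.347), at larger distances. Candidates needed a mean of at least 5 CPM, and Entpd1 lay below that in every library. Genes as scarce as Entpd1 were thus not searched, so its larger distances do not show that its pattern is unusual. With 2 groups of 3 libraries the distances of all tested members mostly compare the fold change between the groups, and many genes share each such pattern.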

How the data were processed

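RNA sequencing libraries of RAW264.7 cells were grouped by their titles. The authors deposited raw read counts per gene. The submitters' processing notes name CASAVA, version 2.0.5 of HISAT2, version 1.5.0-p3 of featureCounts and build mm10, with no settings; annotation and strandedness are not given there. Symbols were matched by Ensembl identifier for 24344 of 24379 genes. Genes were kept by filterByExpr with a minimum count of 10 (14360 kept), scaled by TMM and tested with edgeR 4.0.16 (glmQLFit, glmQLFTest, no covariate) in R 4.3.3, with Benjamini-Hochberg adjustment over the kept genes and a threshold of 0.05. SEs came from the fold change and F value of each gene. CPM, the floor and marker sums used total counts times the TMM factor. TPM used exon lengths from GENCODE M21, merged over the transcripts of each gene. No libraries agreed within sampling noise (chi-square per degree of freedom 2.68 to 18.5 within groups). Alternatives were other scalings, DESeq2 1.42.0, limma-voom (limma 3.58.1), other filters, a replicate block and each library left out. The members and lists were chosen with earlier results of these data known. The text names all 10 members, the 14 wider-list genes past the threshold with the largest absolute log2 fold change, and the 2 genes nearest in pattern to each tested member, among properly named genes with a mean of at least 5 CPM. Other genes named are said to be chosen after their values were seen, or are named as controls, markers, overlapping genes or genes that did not pass.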

Additional observations from a re-analysis of the deposited data

How the results depend on the processing

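P2rx4, P2rx7 and Entpd1 were higher, and P2ry2, Adora2b and Panx1 did not pass, in all 14 other settings. P2ry6 passed in 5 of them, with an adjusted p of 0.0201 to 0.147 over all settings, so 4 or 3 members were called. With at least 1.5-fold required as well, 3 members were called, and with at least 2-fold, 1 was, namely Entpd1. In the main fit Entpd1 passed the filter on low counts through the HFCS-labelled group alone. Most other settings used a filter of the same kind, so for Entpd1 they add no independent support. With each library left out in turn, 3 to 4 members and 5 to 7 genes of the wider list were higher, and 8 to 11 of the wider list were lower, the count of 5 being without HFCS replicate 2. Among the wider-list genes that passed and the tested members, 338 single-gene results kept their direction and side of the threshold, 54 no longer passed, and none changed direction. Without a filter on low counts, Adora2a (log2 fold change -0.57, edgeR adjusted p = 0.650) and Nt5e (1.06, edgeR adjusted p = 0.592) did not pass. The labels do not say whether the replicate numbers pair the libraries. Deviations of same-numbered libraries correlated at 0.167, -0.064 and 0.191 across genes, and those of different-numbered libraries at -0.3 to 0.163. With so few libraries these values cannot settle it. With the replicate block 7152 genes were called in place of 6447, and 4 members; no library pairing was assumed. Control replicate 1 stood apart, and without it 7550 genes were called. Counts of Adora2a and Nt5e lie too near the floor to show any but a very large difference.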
